A study of Mus musculus with 3 samples.

Results

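Semaphorins, plexins, Eph receptors and ephrins are 4 gene families of cell-to-cell guidance signalling. Their genes were examined in peak lists of the transcription factor Foxp4 and of H3K27ac, the acetylation of histone H3 that marks active promoters and enhancers, from mouse beige adipocytes. Members were all peaks whose assigned gene symbol, in the deposited annotation to the nearest transcription start site (TSS), belonged to 1 of these families. This gave 146 of 34501 peaks, comprising 87 of 16937 Foxp4 peaks and 59 of 17564 H3K27ac peaks. The Foxp4 peaks were assigned to semaphorins (30), plexins (24, of which 2 to the antisense transcript Plxna4os1), Eph receptors (14) and ephrins (19). The H3K27ac peaks were assigned to semaphorins (19), plexins (22), Eph receptors (10) and ephrins (8). RefSeq lists 51 protein-coding genes of these families, with 20 semaphorins, 9 plexins, 14 Eph receptors and 8 ephrins, and 35 of them had a peak in either list.

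The cells came from the stromal-vascular fraction of inguinal white fat of C57BL/6 mice and were turned into beige, that is thermogenic, adipocytes in culture. They were first grown for 3 days and on to confluence in 20% serum. Induction lasted 48 h in 10% serum with troglitazone (5 µM), T3 (50 nM), dexamethasone (1 µM), insulin (5 µg/ml) and isobutylmethylxanthine (0.5 mM), and culture went on for 6 days with insulin, T3 and troglitazone. Foxp4 ChIP, H3K27ac ChIP and input DNA were each 1 library from such cells, and the input was not used here. No genotype or treatment differed between libraries and there was no replicate, so no value has a test between samples. The 95% intervals of shares are exact (Clopper-Pearson), for counting error alone. The labels do not give the number of mice or cultures.

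The score of a peak is the authors' own whole number, at least 20 in both lists, and was compared only within a list. Sequencing depth is unknown from peak lists. The labels describe immunoprecipitation with a Foxp4 antibody for every library and name none for H3K27ac. Of the adipocyte markers, 6 of 8 had an H3K27ac promoter peak (Pparg, Cebpa, Lipe, Plin1, Lpl and Cd36), against 1 of 8 beige markers (Ebf2), and Ucp1, Dio2, Adrb3 and Prdm16 were assigned no peak of either list, although 4 Foxp4 and 2 H3K27ac peaks lay inside Prdm16. Progenitor markers had such a peak at 2 of 4 genes (Pdgfra, Ly6a), endothelial markers at 0 of 4, macrophage markers at 1 of 4 (Cd68) and mural markers at 1 of 4 (Acta2). Bulk chromatin does not separate cell types, and which cells carried a peak was not tested.

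Semaphorins are secreted or membrane-bound ligands whose main receptors are the plexins. Secreted class 3 semaphorins usually need a neuropilin as co-receptor, whereas the membrane-bound classes bind plexins directly, and plexins act on small GTPases to retract or steer the cell edge. Eph receptors are receptor tyrosine kinases, and their ligands, the ephrins, sit on the neighbouring cell by a lipid anchor (A class) or a transmembrane segment (B class), so that signals pass both ways at cell contacts. These families were first studied in axon guidance and also pattern blood vessels. In fat, semaphorins and plexins have been studied in adipose innervation, inflammation and fat distribution.

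Sequences upstream of 3 semaphorin genes are shown because the peaks of these lists lay differently around each of them. Each is the 250 bases 5′ of a RefSeq TSS on the gene's own strand (RefSeq, GRCm38.p6, the assembly of mm10), with every CG dinucleotide in capitals. Sema3c, a secreted ligand, is at chr5:17574566-17574815 on the plus strand, and this stretch lay wholly inside a Foxp4 peak while no H3K27ac peak lay within 1000 bp. Sema4b, a membrane-bound ligand, is at chr7:80186620-80186869 on the plus strand, wholly inside an H3K27ac peak and with no Foxp4 peak assigned to the gene. Sema4a, a membrane-bound ligand with a role in immune cells, is at chr3:88461183-88461432 on the minus strand, and the Foxp4 promoter peak of the gene began a little further upstream.
Sema3c: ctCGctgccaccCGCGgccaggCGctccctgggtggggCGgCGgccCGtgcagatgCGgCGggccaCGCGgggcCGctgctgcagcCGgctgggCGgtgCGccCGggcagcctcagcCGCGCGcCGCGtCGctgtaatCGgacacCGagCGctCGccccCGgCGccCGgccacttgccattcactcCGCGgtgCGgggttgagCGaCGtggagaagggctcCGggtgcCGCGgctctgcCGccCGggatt
Sema4b: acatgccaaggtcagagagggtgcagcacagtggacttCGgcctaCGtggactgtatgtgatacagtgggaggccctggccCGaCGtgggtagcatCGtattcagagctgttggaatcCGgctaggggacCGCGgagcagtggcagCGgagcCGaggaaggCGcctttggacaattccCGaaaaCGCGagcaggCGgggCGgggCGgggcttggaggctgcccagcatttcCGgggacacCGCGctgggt
Sema4a: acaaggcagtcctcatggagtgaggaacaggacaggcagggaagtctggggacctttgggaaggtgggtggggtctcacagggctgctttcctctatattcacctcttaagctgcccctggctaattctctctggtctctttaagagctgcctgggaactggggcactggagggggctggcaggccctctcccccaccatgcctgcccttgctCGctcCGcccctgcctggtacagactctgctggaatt
The Sema3c stretch held 39 CG dinucleotides and 78.4% G+C. The Sema4b stretch held 20 and 64.4%, and that of Sema4a 2 and 59.6%.

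Across the 51 genes, peaks were common but mostly not at the start site. A Foxp4 peak was assigned to 30 genes (58.8%, interval 44.2 to 72.4%), against 36.6% of the 21031 protein-coding genes, and an H3K27ac peak to 26 (51.0%, interval 36.6 to 65.2%), against 37.5%. A promoter peak, centred no more than 1000 bp from the TSS, was found for Foxp4 at 4 genes (7.84%, interval 2.18 to 18.9%), against 6.77%, and for H3K27ac at 12 genes (23.5%, interval 12.8 to 37.5%), against 26.0%. Both shares of promoter peaks were thus close to those of all genes. The share of genes with any Foxp4 peak was above that of all genes, with an interval that did not cover it. For any H3K27ac peak the share was higher too, but its interval covered that of all genes (37.5%). Gene length differed too: the family genes had a median length of 29.0 kb, against 17.7 kb for all protein-coding genes, and the 30 with a Foxp4 peak had a median of 124.5 kb, against 31.2 kb for all genes with a Foxp4 peak. Per 100 kb of gene body the families held 0.606 Foxp4 peaks and 0.487 H3K27ac peaks, against 0.838 and 1.13 for all protein-coding genes. By gene body, then, both pooled values lay below those of all genes. This did not hold for each family. The Foxp4 value was 0.182 for Eph receptors and 1.33 for ephrins. Those of semaphorins (0.857) and plexins (0.828) were near that of all genes. The ephrin value rests on 5 peaks in gene bodies, all of them in Efna5. The part of gene length or of the surrounding intergenic space in the share of genes with a peak was not tested.

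**Figure D1:**
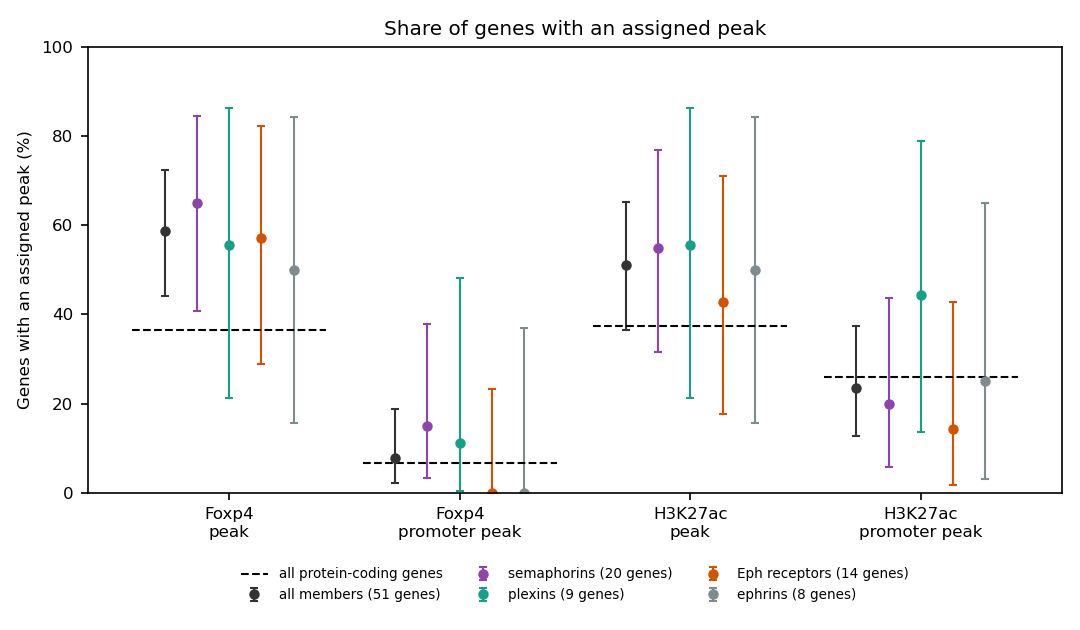
Percentage of genes with an assigned peak (y axis) for all 51 family genes and for each family, with exact 95% intervals as bars. The dashed lines give all protein-coding genes (36.6%, 6.77%, 37.5% and 26.0% from left to right), and the families' intervals are wide because they hold 8 to 20 genes.

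The 2 lists shared more of these genes than of all genes, but their peaks overlapped at few genes in either set. Peaks of both lists were assigned to 21 genes (41.2%, against 20.4% of all protein-coding genes), a Foxp4 peak alone to 9 (against 16.2%), an H3K27ac peak alone to 5 (against 17.1%) and neither to 16 (31.4%, against 46.3%). A Foxp4 peak with 1 or more bp in common with H3K27ac was assigned to 4 genes (Plxna1, Plxnc1, Ephb3 and Efna5), which is 7.84% against 5.36%, and promoter peaks of both lists to Plxna1 alone (against 3.70%). By peaks, 4 of 87 Foxp4 peaks (4.60%, interval 1.27 to 11.4%, against 8.21%) and 4 of 59 H3K27ac peaks (6.78%, interval 1.88 to 16.5%, against 7.91%) overlapped the other list. The 16 genes with no assigned peak were Sema3e, Sema4d, Sema4g, Sema6c, Sema7a, Plxna3, Plxnb1, Plxnb3, Epha1, Epha8, Epha10, Ephb1, Ephb6, Efna3, Efna4 and Efnb3, and their median length was 16.5 kb.

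**Figure D2:**
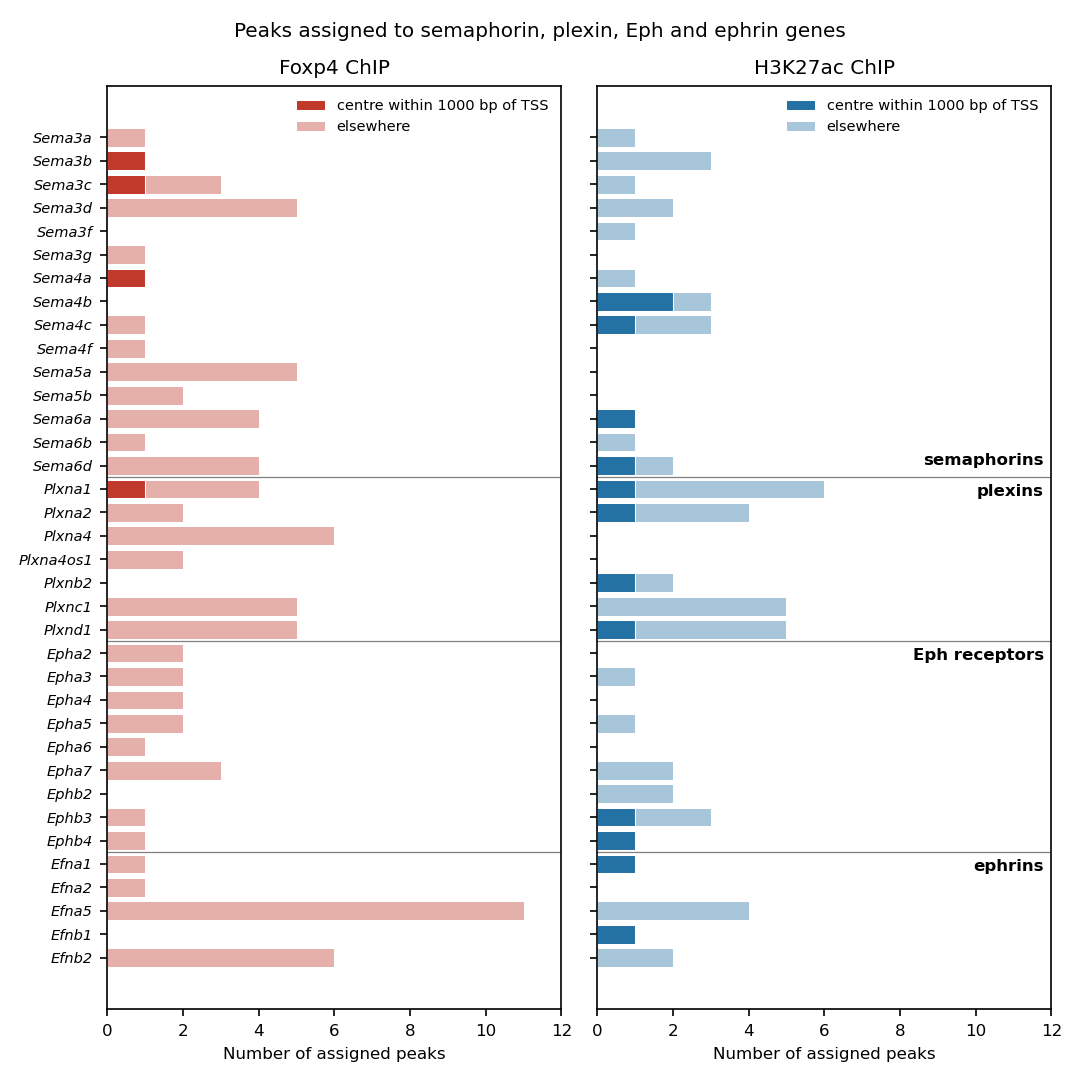
Number of assigned peaks (x axis) in the Foxp4 and the H3K27ac list for each family gene with a peak and for Plxna4os1 (rows), with promoter peaks in the dark colour. Efna5 held 11 Foxp4 peaks, the highest number, and Plxna1 held 6 H3K27ac peaks, the highest in that list.

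Among the ligands, 2 of the 7 secreted class 3 semaphorins, Sema3b and Sema3c, had a Foxp4 promoter peak (28.6%, interval 3.67 to 71.0%, against 6.77% of all protein-coding genes). An H3K27ac promoter peak was assigned to 0 of 7 (interval up to 41.0%, against 26.0%), and any Foxp4 or H3K27ac peak to 5 each. With 7 genes these intervals hold little information. Sema3b had a single Foxp4 peak (chr9:107605303-107605667, score 44), centred 83 bp upstream of its TSS in the authors' promoter class. Its 3 H3K27ac peaks lay upstream of another annotated start, by 3005 bp (score 50), 4065 bp (score 74, at the transcript end of the neighbouring Gnai2) and 9518 bp (score 35, in a Gnai2 intron). The Foxp4 and the nearest H3K27ac peak of Sema3b were 6203 bp apart.

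Sema3c, described as a factor secreted by fat cells, had 3 Foxp4 peaks. The promoter peak (chr5:17573848-17574943, score 41) was centred 421 bp upstream and, at 1096 bp, was the widest Foxp4 peak of the families, whose median width was 358 bp. A second peak (chr5:17556108-17556446, score 29) lay 18539 bp upstream, and the only H3K27ac peak of the gene (score 26) began 84 bp from it without overlap. The third lay in intron 2 (score 27). A further Foxp4 peak in intron 15 (score 22) was assigned to Cd36, the fatty acid transporter gene downstream. Foxp4 thus had 4 peaks in or near Sema3c, with acetylation called beside 1 of them and at none of the others.

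Sema3d had 5 Foxp4 peaks with scores from 27 to 34 and 2 H3K27ac peaks with scores of 23 and 58, all more than 100 kb from its TSS. Sema3a had 1 peak in each list, at 379165 bp (Foxp4, score 28) and 307023 bp (H3K27ac, score 30) upstream. Sema3g, a ligand known from endothelial cells, had a single Foxp4 peak 2607 bp upstream (score 28), and Sema3f a single H3K27ac peak 14136 bp upstream (score 27). Sema3e, the ligand that binds plexin D1 without a neuropilin, had no peak in either list.

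Of the 6 membrane-bound class 4 semaphorins, 3 had a Foxp4 peak, 3 an H3K27ac peak and 2 of them both. Sema4b had 3 H3K27ac peaks and no assigned Foxp4 peak, although a Foxp4 peak of score 27 in its intron 13 was assigned to Cib1. Its strongest (chr7:80186443-80187667) had a score of 104, the second highest of the families, and covered the printed promoter. Another (score 58) covered its second annotated start, and the last (score 33) lay 21398 bp upstream. Sema4c had the widest H3K27ac peak of the families (chr1:36555604-36558227, 2624 bp, score 84), at its start. Its Foxp4 peak (chr1:36568420-36568803, score 49) was the second highest of the families, lay 10230 bp upstream in intron 12 of Fam178b, and was separated by 282 bp from an H3K27ac peak with a score of 43. Sema4a had a Foxp4 promoter peak at a low score of 21 (chr3:88461502-88461809, 473 bp upstream) and an H3K27ac peak 2980 bp upstream (score 30), 2145 bp from it. Sema4f had 1 intronic Foxp4 peak (score 22).

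Class 5 semaphorins, transmembrane ligands with thrombospondin repeats, were assigned Foxp4 peaks alone. Sema5a held 5, all in its introns, with 4 of them in intron 1 at scores of 34, 34, 41 and 27 and 1 in intron 5 at 22. Sema5b held 2, with scores of 34 (intron 1) and 41 (intron 3). An H3K27ac peak with a score of 47 reached into the 250 bases upstream of the Sema5a start but was assigned to the non-coding gene Snhg18.

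Class 6 semaphorins, transmembrane ligands of A-type plexins, had acetylated starts at 2 of 4 genes. Their Foxp4 peaks lay elsewhere, in introns or between genes. Sema6d had an H3K27ac promoter peak with a score of 91 (chr2:124610226-124611298) and another 1670 bp upstream of a further annotated start (score 45). Its 4 Foxp4 peaks had scores of 41, 34, 34 and 21. The nearest, in intron 5 of a longer transcript, lay 6060 bp upstream of an annotated start, and the others were intergenic. Sema6a had an H3K27ac promoter peak with a score of 28 and 4 Foxp4 peaks with scores from 20 to 34, the nearest 30782 bp away. Sema6b had 1 peak in each list, 1273 bp apart, in intron 7 (Foxp4, score 21) and intron 3 (H3K27ac, score 43).

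Of the receptors, 4 of 9 plexin genes had an H3K27ac promoter peak (44.4%, interval 13.7 to 78.8%, against 26.0% of all protein-coding genes), namely Plxna1, Plxna2, Plxnb2 and Plxnd1. The families' densities were 1.34 H3K27ac peaks and 0.828 Foxp4 peaks per 100 kb of gene body for plexins, 0.335 and 0.857 for semaphorins, 0.328 and 0.182 for Eph receptors and 0.532 and 1.33 for ephrins. Plexin genes were thus the 1 family above the H3K27ac density of all protein-coding genes (1.13). That value rests on 13 peaks in gene bodies, 4 of them in Plxna1, is near that of all genes, and the difference was not tested.

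Plxna1, which transduces class 3 and class 6 semaphorin signals, had the highest-scoring family peak of both lists. In intron 1, on a CpG island 740 bp from the TSS, a Foxp4 peak (chr6:89361704-89362043, score 34) lay wholly inside an H3K27ac peak of 1218 bp (chr6:89361375-89362592). The score of that H3K27ac peak, 109, was the highest of the 59. A second Foxp4 peak in intron 9 (chr6:89337950-89338330) had the highest score of the 87, at 57, and shared no base with H3K27ac, the nearest peak being 6032 bp away. The other 2 Foxp4 peaks (27 each) and 2 of the 6 H3K27ac peaks (41 and 39) lay upstream in introns of Chchd6, a mitochondrial protein gene, and were assigned by distance. The other 3 H3K27ac peaks lay in intron 3, with scores of 52, 38 and 28.

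Plxnc1, the receptor of semaphorin 7A, had 5 peaks in each list but none within 1000 bp of its start. Its Foxp4 peaks were all upstream and intergenic, from 1781 to 95226 bp, with scores of 41, 34, 41, 27 and 34. Of its 5 H3K27ac peaks, 4 were grouped between 45895 and 59194 bp upstream, with scores of 61, 47, 51 and 22. The peaks met at 1 place, where a Foxp4 peak (chr10:95003890-95004221, score 34) shared 51 bp with an H3K27ac peak (chr10:95003605-95003940, score 22). The next Foxp4 peak (chr10:95004534-95004885, score 41, on an LTR repeat) began 593 bp beyond that H3K27ac peak. The shared bases were thus at the lowest-scoring of the 5 H3K27ac peaks.

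Plxnd1, the vascular plexin that binds semaphorin 3E, also had 5 peaks in each list and no overlap between them. Its H3K27ac peaks had scores of 67 in exon 1 (chr6:115994179-115994753, 539 bp from the TSS), 27 and 40 in intron 1, 30 at 12060 bp upstream and 44 at 77953 bp upstream in an intron of Tmcc1. Its Foxp4 peaks had scores of 21 in intron 1, 30 at 15353 bp upstream, and 34, 25 and 21 in introns of Tmcc1. The closest pair was 2902 bp apart. At Plxnd1, therefore, peaks of both lists ran through the same stretch without meeting.

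**Figure D3:**
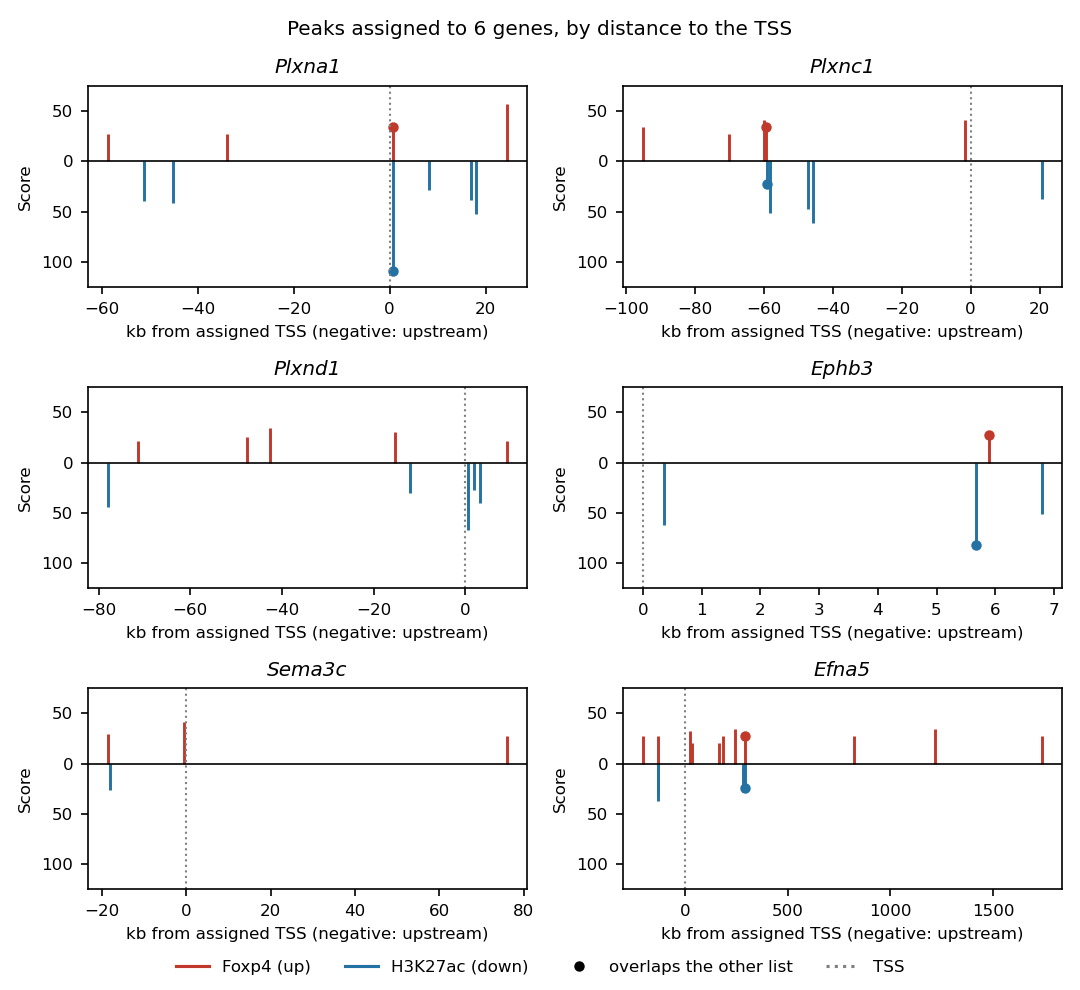
Foxp4 and H3K27ac peaks at 6 genes, with the distance from the TSS (dotted) in kb on the x axis (negative is upstream) and the authors' score as the length of each line, Foxp4 upwards and H3K27ac downwards, with dots on overlapping peaks. Overlapping peaks are seen at Plxna1, Ephb3, Plxnc1 and Efna5, and peaks of the 2 lists lie apart at Plxnd1 and Sema3c.

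Plxna2 had an H3K27ac promoter peak (score 46), 3 more H3K27ac peaks (21, 33 and 40) and 2 distant Foxp4 peaks (34 and 27) at least 72120 bp upstream. Plxnb2, a receptor of class 4 semaphorins, had H3K27ac peaks alone, with scores of 41 at 843 bp and 62 at 1038 bp from 2 annotated starts, so that the stronger fell just outside the promoter window. Plxna4 had 6 Foxp4 peaks and no H3K27ac peak, the nearest H3K27ac peak of any gene to these 6 being 248579 bp away. Only 1 of the 6 (score 34, intron 1) lay inside Plxna4, 2 were intergenic and 3 lay in introns of Chchd3. The 2 Foxp4 peaks assigned to Plxna4os1 (27 and 21) lay in intron 3 of Plxna4, and whether they belong to the gene or to its antisense transcript cannot be told apart.

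Of the 14 Eph receptors, 0 had a Foxp4 promoter peak (interval up to 23.2%, against 6.77% of all protein-coding genes) and 2 had an H3K27ac promoter peak (14.3%, interval 1.78 to 42.8%, against 26.0%), so both intervals covered the share of all genes. The latter 2 were of the B class (2 of 5), and the A class had 0 of 9. Ephb3, a receptor of B ephrins, had 1 Foxp4 peak, and it overlapped H3K27ac. In intron 1, 5886 bp from its TSS, a Foxp4 peak (chr16:21210509-21210854, score 27) shared 327 of its 346 bp with an H3K27ac peak (chr16:21210097-21210835, score 82). Other H3K27ac peaks stood at the start (score 62) and 379 bp beyond the Foxp4 peak (score 51). Ephb4, the venous receptor of ephrin-B2, had an H3K27ac promoter peak (score 37) and a Foxp4 peak 48937 bp away in an intron of Zan (score 34). Ephb2 had 2 intronic H3K27ac peaks of score 24.

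In the A class of Eph receptors most Foxp4 peaks lay far from the start. There were 6 of 9 genes with such a peak, with scores from 21 to 41, and 8 of the 14 Foxp4 peaks of Eph genes, all of the A class, lay more than 100 kb from the TSS. Epha6 had 1 peak, 916609 bp upstream (chr16:61521997-61522283, score 41), the highest-scoring of the Eph genes. Epha7, known from neural patterning, had 3, at 3066, 387189 and 828153 bp upstream (scores 34, 34 and 27), and Epha2, the epithelial ephrin-A receptor, had 2 of score 27. H3K27ac peaks of the A class were all distal, at Epha3 (43), Epha5 (34) and Epha7 (23 and 33). No Foxp4 peak of an A-class gene overlapped H3K27ac (0 of 9 genes, interval up to 33.6%, against 5.36% of all protein-coding genes).

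Of the ephrins, 2 of 8 had an H3K27ac promoter peak (25%, interval 3.19 to 65.1%, against 26.0% of all protein-coding genes) and 0 of 8 a Foxp4 promoter peak (against 6.77%). Efna1 had an H3K27ac promoter peak (chr3:89279812-89280316, score 33, 419 bp upstream) and a Foxp4 peak of score 32 (chr3:89282324-89282609) that began 2007 bp further on. Efnb1, the X-linked ephrin, had an H3K27ac promoter peak alone (score 43). Efna2 had a Foxp4 peak (score 27) that the deposited annotation placed in an intron of a transcript named Bc1. Efna5, the ligand of several EphA receptors, had 11 Foxp4 peaks with scores from 21 to 34, spread over 1738570 bp downstream to 204137 bp upstream of its TSS. Of these, 5 lay in its introns, 5 were intergenic and 1 lay in an intron of Fbxl17. The 1 overlap (chr17:62589960-62590290, score 27) shared 225 bp with an H3K27ac peak of score 24 (chr17:62590066-62590513), 291192 bp from the TSS. The other 3 H3K27ac peaks of Efna5 (28, 37 and 30) were distal too, and its start had none.

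Efnb2, the arterial ephrin, had 6 Foxp4 peaks (34, 34, 21, 34, 34 and 25) and 2 H3K27ac peaks (59 and 30), all intergenic and from 332235 to 1648292 bp from its TSS. In the farthest pair the Foxp4 peak of score 34 and the H3K27ac peak of score 59 were 1437 bp apart. At such distances the nearest TSS is a label of position, and a link between these peaks and Efnb2 was not tested.

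Peaks of these families lay farther from start sites than the peaks of each list as a whole. The median distance to the TSS was 76.1 kb for the 87 Foxp4 peaks against 27.3 kb for all Foxp4 peaks, and 14.1 kb for the 59 H3K27ac peaks against 5.50 kb for all. More than 100 kb away were 40 Foxp4 peaks (46.0%, interval 35.2 to 57.0%), against 21.6%, and 13 H3K27ac peaks (22.0%, interval 12.3 to 34.7%), against 8.11%. Beyond 500 kb were 11 Foxp4 peaks (12.6%, against 3.09%), 7 of ephrins and 4 of Eph receptors. By family the median distance of Foxp4 peaks was 49.7 kb for semaphorins, 65.2 kb for plexins, 226 kb for Eph receptors and 291 kb for ephrins. Peaks of 1 gene share its surroundings and are not independent, and Efna5 and Efnb2 alone gave 17 of the 19 ephrin peaks.

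**Figure D4:**
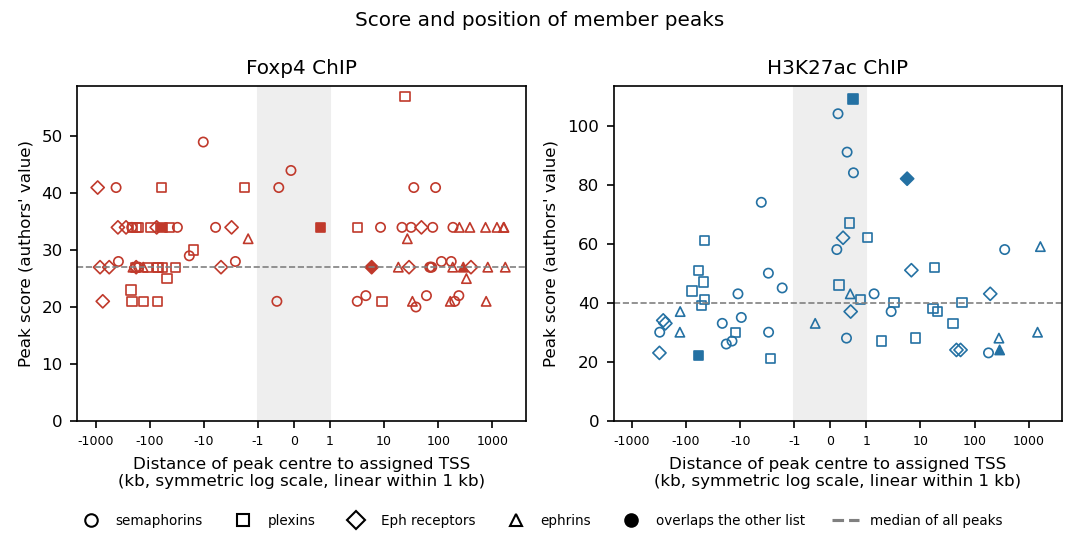
Authors' score (y axis) against the signed distance to the assigned TSS in kb (x axis, symmetric log scale, linear within the shaded 1 kb on either side) for each family peak, with 1 panel per list, 1 marker shape per family, filled markers for overlapping peaks and a dashed line at the median of the list. Foxp4 scores fall on a few repeated values at all distances, and every H3K27ac peak with a score above 61 lies within 10 kb of the TSS.

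In position classes and repeats the Foxp4 peaks were near the list, and each interval covered the share of all Foxp4 peaks. By the authors' classes, 41 Foxp4 peaks were intronic (47.1%, against 43.5%), 42 intergenic (48.3%, against 45.2%), 3 in the promoter class (3.45%, against 6.12%) and 1, of Epha2, at a transcript end. By distance, 4 were promoter peaks (4.60%, against 9.48%), that of Plxna1 being also intronic. Of the 87, 21 lay on annotated repeats (24.1%, against 32.0%). Of the H3K27ac peaks, 13 were promoter peaks by distance (22.0%, interval 12.3 to 34.7%, against 36.5%). By class, 22 were intergenic (37.3%, against 27.2%) and 7 in 5′ untranslated exons (11.9%, against 2.53%).

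H3K27ac scores were higher at starts than elsewhere. The 13 promoter peaks had a median score of 58 and a range of 28 to 109, and the other 46 a median of 37 and a range of 21 to 82, so the groups overlapped. All H3K27ac promoter peaks had a median of 51 and the rest of the list 37. Foxp4 scores of the families had a median of 28 and a range of 20 to 57, against a median of 27 for the list. Of the 87 Foxp4 peaks, 71 (81.6%, against 73.1% of the list) carried 1 of a few repeated scores, that is a value shared by 100 or more Foxp4 peaks and over 3 times as frequent as the values next to it. They were 34 (27 peaks), 27 (24), 21 (11), 41 (7), 49 (1) and 57 (1). All 4 Foxp4 peaks that overlapped H3K27ac, and the promoter peaks of Plxna1, Sema3c and Sema4a, were among them, whereas that of Sema3b was not. In the whole H3K27ac list 0 of 17564 peaks had such a score, and the cause of the repeated values was not tested.

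Assignment to the nearest TSS also moved peaks out of these genes. Inside 7 family genes lay 11 more Foxp4 peaks assigned outside the families, and inside 2 genes lay 2 more H3K27ac peaks. Epha4 had 3 such Foxp4 peaks (27, 27 and 28), assigned to Mir6352, and Sema6d had 3 (27, 21 and 27), assigned to a non-coding neighbour. Ephb2 had an H3K27ac peak of score 44 in its 3′ untranslated exon, assigned to Lactbl1. In the other direction, some member peaks lay in an annotated transcript of another gene. These were 14 of the 87 Foxp4 peaks (16.1%, against 15.0% of the list) and 6 of the 59 H3K27ac peaks (10.2%, against 15.0%). The 14 include both peaks of Plxna4os1, which lay in Plxna4, itself a family gene.

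The promoter table of RefSeq held 59 windows of 300 bases (250 upstream and 50 downstream of a TSS) for 45 of the 52 family genes, Plxna4os1 included. Their median G+C content was 64.0%, against 52.7% for all 32851 windows, and their median number of CG dinucleotides was 20, against 7. The 6 family windows that overlapped an H3K27ac peak (Efna1, Plxna2, Sema4c, Sema5a and 2 of Sema4b) had medians of 67.8% and 25.5, and the 53 without had 63.7% and 18. For all genes the windows with H3K27ac had medians of 63.3% and 24, and those without 51.3% and 6. In G+C content, family windows that shared no base with an H3K27ac peak were thus close to windows with H3K27ac of all genes. They are not all unacetylated starts. Those of Efnb1, Ephb3, Ephb4, Plxnb2 and Plxnd1 had an H3K27ac promoter peak centred downstream of the window.

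Forkhead factors, to which Foxp4 belongs, recognise sites related to TGTTTAC. This motif and the looser forms TATTTAC and TGTTTAT were searched on both strands, and the motifs did not overlap one another in family windows. TGTTTAC was in 0 of 59 family windows (against 3.65% of all windows), TATTTAC in 1 (against 3.04%) and TGTTTAT in 2 (against 4.60%). Any of them was in 3 windows (5.08%, interval 1.06 to 14.1%), against 10.6%, which the interval covers. Of the windows of all genes that overlapped H3K27ac, with a median G+C content of 63.3%, 5.52% held any of them. Of those that overlapped Foxp4, 9.12% did. The part of G+C content in these shares was not tested. The 3 matches are shown with 11 bases on each side because they are all there were, with the motif in capitals and on the gene's own strand, so that a match to the other strand reads ATAAACA. Epha6 has its match at chr16:60605683-60605711 on the minus strand, and Sema4d has one upstream of each of 2 starts, at chr13:51748979-51749007 and chr13:51756782-51756810 on the minus strand.
Epha6: cgtgatacccaATAAACAgctgctacggc
Sema4d, first: aacagccctgcTATTTACaggacagagaa
Sema4d, second: aggaagtcaggATAAACAgcgctgccaca
None of the 3 lay in a peak of either list. The Sema3c window, which lay inside a Foxp4 peak, held none of the motifs. The start sites of Plxna1 and Sema3b, which also had Foxp4 promoter peaks, had no window in the table and were not searched.

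Of 12 co-receptors or non-plexin receptors of the semaphorins, 6 had a Foxp4 peak (50.0%, against 36.6% of all protein-coding genes) and 0 a Foxp4 promoter peak (against 6.77%). An H3K27ac peak was assigned to 6 (50.0%, against 37.5%) and an H3K27ac promoter peak to 4 (33.3%, interval 9.92 to 65.1%, against 26.0%), so these shares were near those of all genes given the small number. Those 4 were Nrp1 (score 91) and Nrp2 (28), the neuropilins that hold class 3 semaphorins, Met (61), a receptor tyrosine kinase that pairs with plexins, and Itgb1 (98), the integrin β1 chain. Nrp1 had no Foxp4 peak.

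Of 29 intracellular effectors of semaphorins and plexins, 18 had an H3K27ac promoter peak (62.1%, interval 42.3 to 79.3%, against 26.0% of all protein-coding genes). A Foxp4 promoter peak was assigned to 5 (17.2%, interval 5.85 to 35.8%, against 6.77%) and a Foxp4 peak overlapping H3K27ac to 4 (13.8%, against 5.36%). The Ras-family substrate of plexins Rras had a Foxp4 promoter peak of score 26 that overlapped H3K27ac of score 139, the plexin adaptor Gipc1 one of 36 with H3K27ac of 87, and the cofilin kinase Limk2 one of 21 with H3K27ac of 74. Rras2 had an intronic overlap (25 with 76), and Arhgef11 (28) and Farp2 (37), both guanine nucleotide exchange factors, had Foxp4 promoter peaks without overlap. Of 26 Eph and ephrin effectors, 10 had an H3K27ac promoter peak (38.5%, interval 20.2 to 59.4%, against 26.0%), 3 a Foxp4 promoter peak (11.5%, interval 2.45 to 30.2%, against 6.77%) and 2 an overlap (7.69%, against 5.36%), at the kinase Src (41 with 33) and at Sipa1l1 (42 with 38). Rgs3 and Vav3 had Foxp4 promoter peaks of score 27 each.

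Other guidance families, the slits, netrins, their receptors and relatives, had 13 of 20 genes with a Foxp4 peak (65.0%, interval 40.8 to 84.6%, against 36.6%) and 7 with an H3K27ac peak (35.0%, against 37.5%). A Foxp4 promoter peak was assigned to 2 (10.0%, against 6.77%), Draxin (score 49) and Robo2 (score 27), and an H3K27ac promoter peak to 3 (15.0%, against 26.0%). None of the 20 had a Foxp4 peak overlapping H3K27ac (interval up to 16.8%, against 5.36%), and that interval covers the share of all genes. These lists differ in gene length and were not tested against each other.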

How the data were processed

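Foxp4 and H3K27ac ChIP libraries, 1 each, were grouped by sample title. Per the submitters' processing notes, Bowtie2, Picard, SAMtools, MACS2, deepTools 3.3.0 and mm10 were used, with no settings. Per the file headers, HOMER annotated the deposited peaks with class, nearest gene and distance to the TSS. The score is a whole number in the deposited lists, and no source used here gives its scaling, the call threshold or the use of input. On chromosomes 1 to 19, X and Y, all peaks but 1 Foxp4 peak were kept. Members were matched by symbol. Genes, lengths and promoters came from RefSeq tables of GRCm38.p6, and the background was 21031 protein-coding genes with a curated transcript. Of all peaks placed in a named transcript by the authors, 99.3% (Foxp4) and 99.5% (H3K27ac) lay inside its RefSeq gene. Overlap needed 1 shared bp. Counting code was tested on simulated data. The members and lists were chosen with earlier results of these data known. Named were genes with Foxp4 promoter peaks, overlaps, the highest scores or most peaks, and other members by their values. Alternatives changed the score threshold, promoter window, assignment and repeated scores. Software was matplotlib 3.10.9, scipy 1.17.1, pandas 2.3.3, numpy 2.4.6 and Python 3.11.15. The result of 1 marker list is not reported here.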

Additional observations from a re-analysis of the deposited data

How the results depend on the processing

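Of 47 alternatives computed, 29 left a count within 1.5 times its value or a share or median within its interval, and 18 did not. With 50% of each list, by score and then position, there were 48 Foxp4 and 28 H3K27ac peaks, 15 genes with an H3K27ac peak and 1 with an overlap. Without the repeated Foxp4 scores 16 Foxp4 peaks were left, at 13 genes, with a promoter peak at 1 gene (Sema3b), an overlap of 0% and 0 genes with an overlap. A promoter window of 3000 bp gave 7 genes with a Foxp4 promoter peak, and one of 500 bp gave 6 with an H3K27ac promoter peak. Assignment by the annotated transcript gave 43 Foxp4 and 32 H3K27ac peaks, 17 genes with an H3K27ac peak and 2 with an overlap. Within 100 kb of the TSS there were 47 Foxp4 peaks. In choices added after seeing the data, promoters by the RefSeq promoter table gave 2 genes with a Foxp4 promoter peak (Plxna1 and Sema3b have no window in it), and peaks inside the gene by position gave 18 genes with a Foxp4 peak. Assignment by transcript or gene position moves peaks between genes, and the score, repeated-score, window and distance choices change the number of peaks or the window. No paired analysis was possible because each ChIP has 1 library and no result comes from a test between samples. Depth is unknown, so a gene without a peak had none called, which a shallow library could also give.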
